A study of Mus musculus with 6 samples.

Results

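The genes described here are 10 genes through which adipocytes take up, bind and release fatty acids from lipoproteins, namely Lpl, Gpihbp1, Lmf1, Angptl4, Cd36, Slc27a1, Fabp4, Fabp5, Vldlr and Lrp1. They were chosen by name, and all 10 were found among the 45706 genes of the count table. RNA was sequenced from 3T3-L1 cells, a mouse embryonic fibroblast line that can be turned into adipocytes in culture, on day 7 of differentiation. The 3 scrambled control samples, labelled WT, carried a scrambled shRNA, and the 3 RBMS1 knockdown samples, labelled RBMS1KD, carried an shRNA against Rbms1, an RNA-binding protein gene. Both shRNAs were delivered by lentivirus and the transduced cells were selected with puromycin, and both groups received the same cocktail of IBMX, insulin, dexamethasone and rosiglitazone, an agonist of the adipogenic receptor PPARγ. The study's methods call the 3 samples of a group biological replicates. How many shRNA sequences or separate transductions they stand for is not given in the sources used here, and the p-values measure the spread between these samples.

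Fatty acids reach an adipocyte largely from triglyceride-rich lipoproteins. Lipoprotein lipase, the product of Lpl, is made by the adipocyte, folded with the help of LMF1, carried to the capillary lumen by GPIHBP1 of the endothelial cell and inactivated by ANGPTL4. The fatty acids it frees enter with the help of CD36 and of the transport protein FATP1, encoded by Slc27a1, and are bound in the cytosol by FABP4 and FABP5, while VLDLR and LRP1 are receptors that bind lipoproteins and their remnants. Several of these genes, among them Cd36, Lpl, Fabp4, Angptl4 and Slc27a1, are known targets of PPARγ.

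Of the 10 genes, 9 passed the filter on low counts and 1, Gpihbp1, did not. Slc27a1 was downregulated in RBMS1 knockdown cells, to 0.471 of its control level. In Cd36, by contrast, all 3 knockdown samples lay above all 3 controls, at 1.65 times the control level, but this difference did not pass the test across all genes. In Lpl and Vldlr, all 3 knockdown samples lay below all 3 controls, and these genes did not pass it either. The other 5 genes tested had overlapping groups. The test was edgeR's quasi-likelihood test over 11440 genes with Benjamini-Hochberg adjustment, and a gene was called at an adjusted p of 0.1 or less.

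Total counts ranged from 3142695 in scrambled control replicate 2 to 11073098 in RBMS1 knockdown replicate 3. Scrambled control replicate 2 also stood apart in that genes derived from ribosomal RNA took 43.0% of its counts, against 8.12% to 17.8% in the other 5. Levels are given as CPM, counts scaled to a common library size with TMM factors, and the level that 3 counts stand for, taken as the limit of detection, was 0.22 to 1.49 CPM in a single sample, which covers counting error only. Rbms1 itself was at 113, 102 and 99.6 CPM in scrambled control replicates 1 to 3 and at 49.2, 61.4 and 84.0 CPM in RBMS1 knockdown replicates 1 to 3, a log2 fold change of -0.69 (SE, standard error, of 0.20, adjusted p = 0.185 by the same edgeR test). Each knockdown sample was thus below each control, and the difference was not called.

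The labels give the cell type as fibroblast, the origin of the line. The adipocyte markers Adipoq, Pparg, Cebpa, Plin1, Cidec, Retn and Cfd were all detected, while Lep had 1 to 5 counts in the controls and 3, 7 and 22 counts in knockdown replicates 1, 2 and 3 (0.16 to 1.61 CPM) and did not pass the filter. All 7 had log2 fold changes below 0 (median -0.37), and 1, Retn on chromosome 8, was called (-1.67, adjusted p = 0.0967 by the same edgeR test), where 1.22% of all tested genes were called. Together these 8 genes reached 6188 to 6744 CPM in the controls, and 7028, 3418 and 4712 CPM in knockdown replicates 1, 2 and 3. The 6 markers of preadipocytes and fibroblasts (Dlk1, Pdgfra, Thy1, Col1a1, Col3a1 and Ly6a) summed to 5953 to 6968 CPM in the controls and to 3144, 6583 and 5776 CPM in knockdown replicates 1, 2 and 3. Of these 6, 5 had log2 fold changes below 0 (median -0.29), among them Dlk1 (-0.84) and Pdgfra (-0.87), whose groups did not overlap, as in 18.5% of all tested genes (9.55% lower in the knockdown samples). Of these 6, edgeR called 0 and DESeq2, which called 2.22% of all genes it tested, called 1. RBMS1 knockdown replicate 1 had the highest adipocyte marker sum and the lowest fibroblast marker sum of the 6 samples. Its adipocyte markers differed among themselves. Cidec (1906 CPM) and Cfd (1407 CPM) were highest in it, and Adipoq, Pparg and Plin1 were within the range of the controls. Cebpa (261 CPM) and Retn (134 CPM) were below every control. Endothelial markers (Pecam1, Cdh5, Kdr, Tie1, Tek and Emcn) summed to at most 1.99 CPM in a sample, with Kdr and Tie1 at 0 in all, and macrophage markers to at most 3.27 CPM, with Adgre1 and Ptprc at 0 in all. Muscle markers summed to 19.5 to 33.4 CPM, with Myod1, Myog and Ckm at 0 in all. In bulk RNA, fewer cells of a type and less RNA per cell cannot be told apart.

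Per kilobase of exon, the 9 genes ranked from 34 to 8846 among 11402 tested genes with a known length. In the controls Lpl was highest at 1233 ± 133 CPM per kb (SD, n = 3), followed by Fabp4 at 728 ± 203, Cd36 at 192 ± 24.9 and Fabp5 at 143 ± 16.6 CPM per kb (SD, n = 3). Lrp1 (66.0 CPM per kb, with samples from 47.7 to 77.2) and Angptl4 (63.6 ± 9.29 CPM per kb, SD, n = 3) came next and overlapped. Vldlr stood at 19.7 ± 1.20, Slc27a1 at 14.5 ± 1.19 and Lmf1 at 1.84 ± 0.344 CPM per kb (SD, n = 3). Apart from Lrp1 and Angptl4, no neighbours in this order overlapped in the controls. The order of the means was the same in the knockdown samples, but there Lpl, at 673 ± 261 CPM per kb (SD, n = 3), overlapped Fabp4, at 528 ± 47.7 (SD, n = 3). By CPM without regard to length, Lpl ranked 8 and Fabp4 ranked 29 of 11440 tested genes in the controls.

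**Figure D1:**
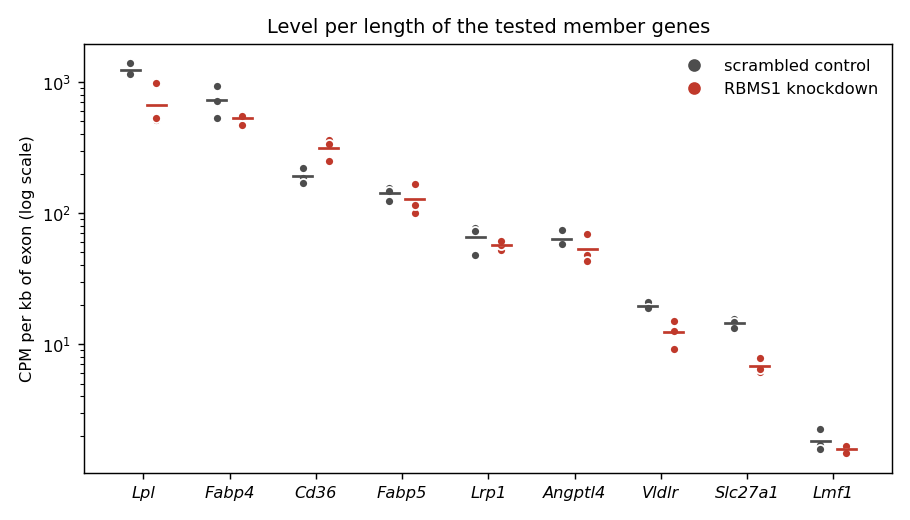
Level of the 9 tested genes per kilobase of exon, in CPM per kb on a log axis, with 1 point per sample and a line at the mean of each group, ordered by the control mean. The order from Lpl (1233 CPM per kb in the controls) to Lmf1 (1.84 CPM per kb) is the same in both groups, and Cd36 is the gene whose knockdown points lie above its control points.

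Lpl (ENSMUSG00000015568), on chromosome 8 of GRCm38 from 68880491 to 68907448, encodes the lipase itself. It was at 12275, 11958 and 14512 CPM in scrambled control replicates 1 to 3 and at 10210, 5350 and 5595 CPM in RBMS1 knockdown replicates 1 to 3. The groups did not overlap, and knockdown replicate 1, the sample with the highest adipocyte marker sum, lay nearer to the controls than to the other knockdown samples. The log2 fold change was -0.87 (SE 0.43), and edgeR's test gave 0.446 as the adjusted p. Without RBMS1 knockdown replicate 1, it was -1.23 and Lpl was called (adjusted p = 0.0816 by the same edgeR test), and DESeq2 called it with all 6 samples (-0.86, adjusted p = 0.0323). What part the differing marker levels have in this was not tested.

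The genes whose products fold, carry and inhibit the lipase had lower levels than Lpl. Lmf1, whose product folds the lipase in the endoplasmic reticulum, was at 23.1, 30.3 and 21.5 CPM in the controls and 21.4, 22.7 and 19.9 CPM in the knockdown samples. Angptl4, the secreted inhibitor, was at 206, 263 and 206 CPM in the controls and 170, 243 and 152 CPM in the knockdown samples. In both genes the groups overlapped, with log2 fold changes of -0.22 (SE 0.19, adjusted p = 0.706) for Lmf1 and -0.26 (SE 0.20, adjusted p = 0.667, both from the same edgeR test) for Angptl4. Gpihbp1 (ENSMUSG00000022579, chromosome 15), known as a gene of capillary endothelium, had 1 count in scrambled control replicate 2 and 0 in the other 5 samples. It was thus under the limit of detection in both groups, and no fold change is given for it. The endothelial markers Cdh5, Kdr, Tie1, Tek and Emcn were under that limit as well. The remaining endothelial marker, Pecam1, was not, with 10, 4 and 0 counts in the controls and 9, 8 and 6 in the knockdown samples.

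Slc27a1 (ENSMUSG00000031808), on chromosome 8 from 71568882 to 71587302, encodes FATP1, a membrane protein with acyl-CoA synthetase activity that aids fatty acid uptake. It was at 90.7, 85.4 and 76.9 CPM in the controls and at 35.8, 37.5 and 45.7 CPM in the knockdown samples. The samples of a group were close together and the gap between the groups was wider than either. The log2 fold change was -1.09 (SE 0.16, adjusted p = 0.0333 by edgeR's quasi-likelihood test), 2.12-fold lower in knockdown cells, and it ranged from -1.20 to -1.01 when single samples were dropped. The call was lost when any 1 of the 3 controls, or knockdown replicate 2, was dropped (adjusted p from 0.1002 to 0.148 in the same edgeR test), and DESeq2 called it with an adjusted p of 4.33e-05.

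Cd36 (ENSMUSG00000002944), on chromosome 5 from 17781690 to 17888801, encodes the scavenger receptor that is the main fatty acid translocase of adipocytes. Its levels were 788, 667 and 613 CPM in the controls and 1299, 900 and 1204 CPM in the knockdown samples. Every knockdown sample was above every control, and knockdown replicate 2, the sample with the lowest adipocyte marker sum, was the lowest of its group. This came to a log2 fold change of 0.72 (SE 0.21, adjusted p = 0.183 by the same edgeR test), and DESeq2 called it (0.74, adjusted p = 0.0156). It was the 1 tested gene of the set with a value above 0.

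Within a library, the ratio of Cd36 to Slc27a1 counts does not depend on how libraries are scaled. It was 8.68, 7.81 and 7.97 in the controls and 36.3, 24.0 and 26.4 in the knockdown samples. The lowest knockdown ratio was above the highest control ratio, and the mean log2 ratio was 3.03 ± 0.08 (SD, n = 3) in the controls against 4.83 ± 0.31 (SD, n = 3), a difference of 1.80 (SE 0.19) or 3.49-fold. The two-sided exact permutation p was 0.1, the smallest that 3 samples against 3 allow, and 0.375 after adjustment over the 5 ratios computed. The other ratios (Fabp4 to Fabp5, Angptl4 to Lpl, Lmf1 to Lpl and Vldlr to Lrp1) had overlapping groups, with exact permutation p between 0.2 and 0.4 (0.375 to 0.4 adjusted). Their log2 differences were -0.23 for Fabp4 to Fabp5, 0.66 for Angptl4 to Lpl, 0.72 for Lmf1 to Lpl and -0.52 for Vldlr to Lrp1.

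Fabp4 (ENSMUSG00000062515), the abundant cytosolic fatty acid-binding protein also called aP2, and its paralog Fabp5 (ENSMUSG00000027533) lie 192 kb apart in a gene cluster near the start of chromosome 3. Fabp4 was at 2386, 4203 and 3220 CPM in the controls and 2527, 2127 and 2459 CPM in the knockdown samples. Its control samples spread widely and the lowest of them was below 2 of the 3 knockdown samples. The log2 fold change was -0.46 (SE 0.28, adjusted p = 0.543 by the same edgeR test), and -0.24 without scrambled control replicate 2, the highest sample and the one with the most ribosomal RNA. Fabp5 was at 443, 558 and 526 CPM in the controls and 592, 360 and 408 CPM in the knockdown samples, where replicate 1 was the highest of all 6. Its log2 fold change was -0.17 (SE 0.21, adjusted p = 0.803 by the same edgeR test). The estimated counts of Fabp5 were not whole in any of the 6 samples, so some of its reads were divided between it and other sequences, and the value is less certain for that. The counts of Fabp4 were whole. The other genes of the cluster, Pmp2, Fabp9 and Fabp12, were at 0 to 1.15 CPM and were not tested.

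Among the receptors, Vldlr (ENSMUSG00000024924, chromosome 19 from 27216484 to 27254231), which binds triglyceride-rich lipoproteins, was at 193, 212 and 190 CPM in the controls and 151, 127 and 92.4 CPM in the knockdown samples. The groups did not overlap. Its log2 fold change was -0.68 (SE 0.19, adjusted p = 0.169 by edgeR's quasi-likelihood test). It was called by DESeq2 (-0.67, adjusted p = 0.0669) and by edgeR without RBMS1 knockdown replicate 1 (-0.85, adjusted p = 0.0313). Lrp1 (ENSMUSG00000040249, chromosome 10), a large endocytic receptor for lipoprotein remnants and many other ligands, was at 1368, 1294 and 844 CPM in the controls and 923, 1008 and 1092 CPM in the knockdown samples. Scrambled control replicate 3 was the lowest of the 6 samples and the groups overlapped, with a log2 fold change of -0.21 (SE 0.23, adjusted p = 0.757 by the same edgeR test). An antisense gene within Lrp1, Gm16217, had 0 counts.

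**Figure D2:**
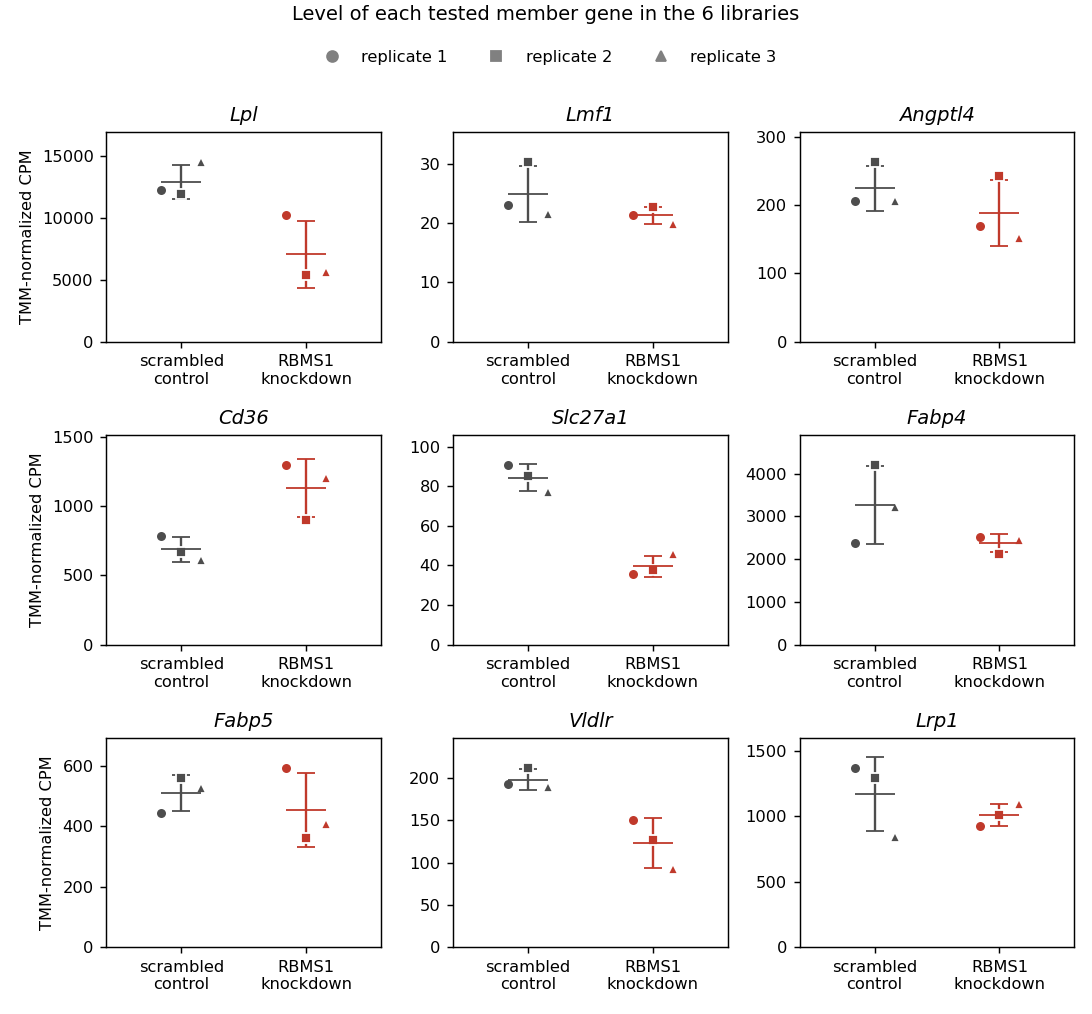
TMM-normalized CPM of the 9 tested genes in each of the 6 samples, with circles, squares and triangles for replicates 1, 2 and 3, the mean as a horizontal line and the SD as error bars (n = 3). The groups are apart in Lpl, Cd36, Slc27a1 and Vldlr, and only Cd36 of these 4 is higher in the knockdown samples.

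Taking the 9 tested genes side by side, 1 was called, in the downward direction. Among all 11440 tested genes, 1.22% were called in either direction and 0.909% downward, so 1 gene of 9 is a count too small to set apart from that background. The groups did not overlap for 4 of the 9 (3 lower and 1 higher), against 18.5% of all tested genes (9.55% lower in the knockdown samples). DESeq2 called 4 of them, the same 4 genes, where it called 2.22% of 19394 genes, and 1.47% downward. The median log2 fold change of the 9 was -0.26 with 8 below 0, and that of all tested genes was 0.0044 with 5673 of 11440 below 0.

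Under another scaling, the smaller values crossed 0. With library sizes alone, without TMM factors, the median over all tested genes was 0.37, and Angptl4 (0.14), Fabp5 (0.23), Lmf1 (0.19) and Lrp1 (0.18) came out above 0. Relative to that median their values were -0.23, -0.14, -0.18 and -0.19, close to those with TMM factors, and Cd36 stood at 0.72, Lpl at -0.88, Slc27a1 at -1.08, Fabp4 at -0.39 and Vldlr at -0.67. Slc27a1 was not called with library sizes alone (-0.70, adjusted p = 0.274 by edgeR's quasi-likelihood test).

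**Figure D3:**
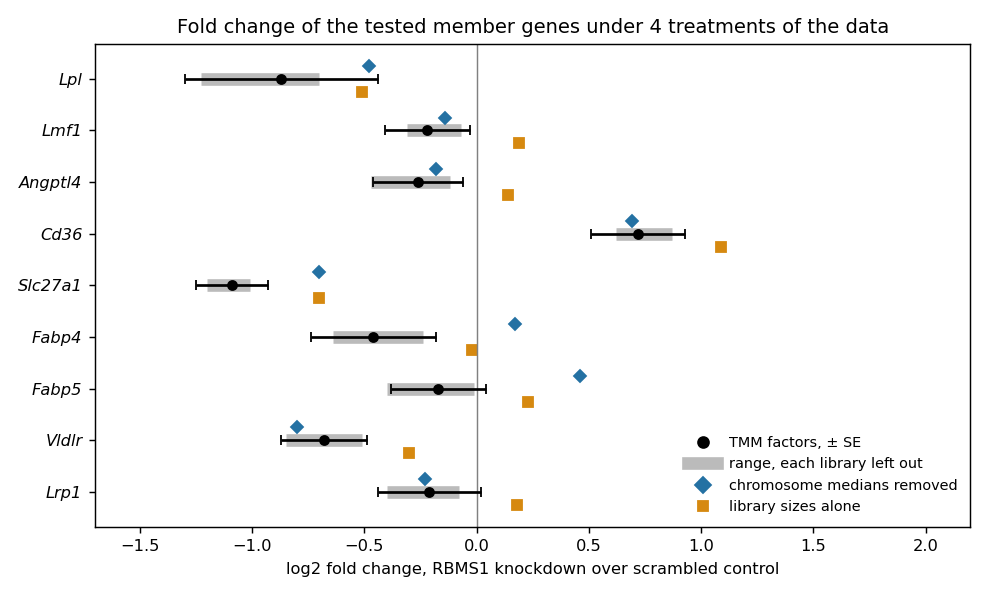
Log2 fold change of the 9 tested genes, RBMS1 knockdown over scrambled control. Black points are the values with TMM factors with their standard error, grey bars the range with each library left out in turn, blue diamonds the values with each sample's chromosome median removed (for Fabp4 and Fabp5, that of the first 50 Mb of chromosome 3), and orange squares those with library sizes alone. Cd36 lies above 0 and Slc27a1, Lpl and Vldlr below 0 in all of these, while Fabp4 and Fabp5 come out at 0.17 and 0.46 once the median of that stretch is removed.

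Of the 9 genes, 4 lie in parts of the genome whose median log2 fold change was -0.38 or lower. The other 622 tested genes of chromosome 8, which holds Lpl and Slc27a1 2688 kb apart, centred on a log2 fold change of -0.38 (median), and 90.0% of them were below 0. Slc27a1 was lower than that median by 0.70 and Lpl by 0.49, and 5.95% and 8.36% of these genes had values lower than theirs. In the first 50 Mb of chromosome 3, the 89 other tested genes had a median of -0.64 with 80 below 0. Fabp4 and Fabp5 were above that median by 0.17 and 0.47. The tested genes nearest to the pair were above it too (Zbtb10 0.11, Impa1 -0.39, Zfand1 -0.19 and Snx16 0.07), apart from Pag1 at -4.52. The median of the whole stretch thus differs from most values next to the pair. Cd36, Vldlr, Lmf1, Angptl4 and Lrp1 lie on chromosomes whose medians were between -0.09 and 0.11 (on chromosome 17, with Lmf1 and Angptl4, 61.3% of the other genes were below 0), and Vldlr was 0.80 below the median of chromosome 19. Once the chromosome medians of each sample were taken out, with the first 50 Mb of chromosome 3 treated as a chromosome of its own, Slc27a1 had a log2 fold change of -0.70 and was not called (adjusted p = 0.159 by edgeR's quasi-likelihood test), and the values were -0.48 for Lpl, 0.69 for Cd36 and -0.80 for Vldlr. Fabp4 (0.17) and Fabp5 (0.46), from which the median of that 50 Mb stretch was taken, then had the opposite sign. Whether the median of a narrower stretch would do the same was not tested. What lowers these stretches, and how much of it the values of the 4 genes share, was not tested.

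The nearest tested genes had values of both signs. Next to Slc27a1, Mvb12a (-0.38), Pgls (-0.53) and Fam129c (-0.41) had log2 fold changes below 0 and Bst2 (2.02), an interferon-induced membrane protein gene, had one above it, none of them called. Around Lpl, the values were -0.18 for Csgalnact1, -0.52 for Ints10, 0.00 for Atp6v1b2 and -0.27 for Lzts1. Before Fabp5 lay Pag1, at -4.52 (adjusted p = 0.0333 by the same edgeR test), and Zbtb10, at 0.11, and after Fabp4 came Impa1 (-0.39) and Zfand1 (-0.19). Of these neighbours, 1 was called, Pag1.

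**Figure D4:**
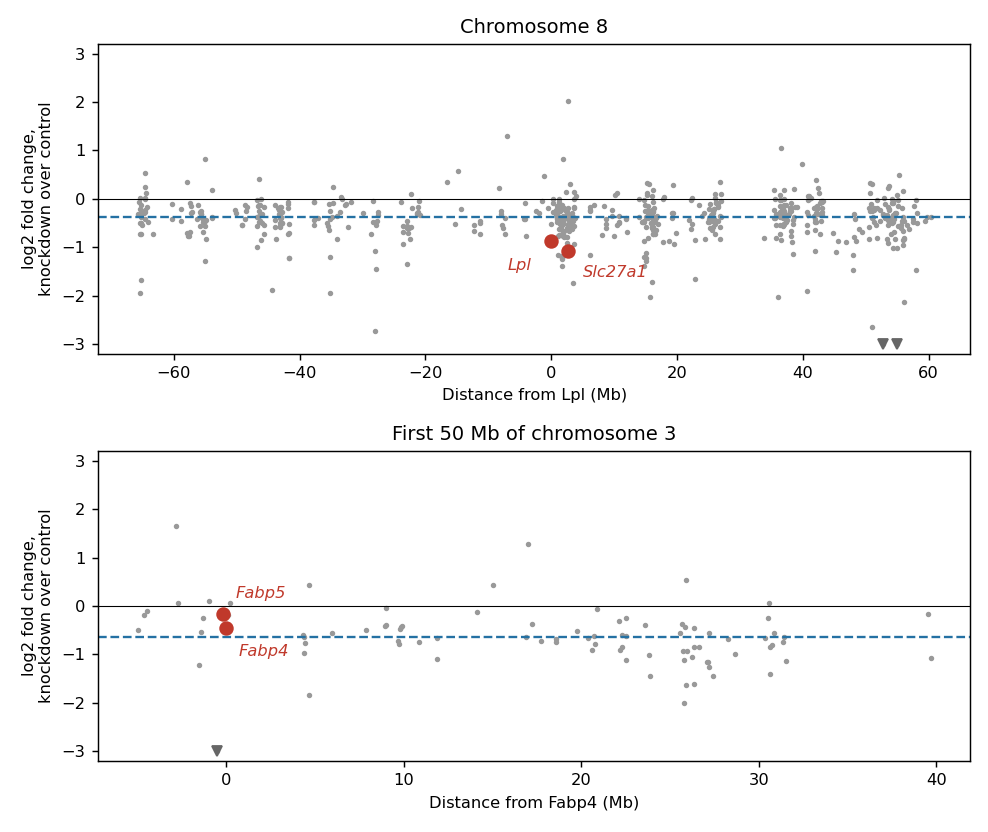
Log2 fold change of each tested gene (RBMS1 knockdown over scrambled control) along chromosome 8, by distance from Lpl in Mb, and along the first 50 Mb of chromosome 3, by distance from Fabp4 in Mb. Grey points are other genes, red points are Lpl, Slc27a1, Fabp4 and Fabp5, the dashed line is the median of the other genes (-0.38 and -0.64), and triangles at the lower edge mark genes with values below the axis range. Lpl and Slc27a1 lie under the dashed line and Fabp4 and Fabp5 over it.

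The 250 bases before the transcription start of the 3 genes with the smallest p are shown because their direction differed (Slc27a1 and Vldlr lower, Cd36 higher). They are RefSeq windows on GRCm38.p6, at chr8:71568621-71568870 (plus strand) for Slc27a1, chr19:27216234-27216483 (plus strand) for Vldlr and chr5:17835897-17836146 (minus strand) for Cd36, the last of which lies within the longer annotated gene but outside its exons. Each is written from 5′ to 3′, with capitals at matches, on either strand, to the half-site of nuclear receptors such as PPARγ (AGGTCA), its direct repeat with a spacer of 1 base, which contains the half-site, the TATA box (TATAAA), the CCAAT box (CCAAT) and the GC box (GGGCGG).
Slc27a1: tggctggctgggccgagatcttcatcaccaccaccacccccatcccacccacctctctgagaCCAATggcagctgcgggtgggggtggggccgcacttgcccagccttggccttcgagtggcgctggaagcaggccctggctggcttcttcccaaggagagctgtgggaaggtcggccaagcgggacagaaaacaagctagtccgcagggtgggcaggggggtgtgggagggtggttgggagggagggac
Vldlr: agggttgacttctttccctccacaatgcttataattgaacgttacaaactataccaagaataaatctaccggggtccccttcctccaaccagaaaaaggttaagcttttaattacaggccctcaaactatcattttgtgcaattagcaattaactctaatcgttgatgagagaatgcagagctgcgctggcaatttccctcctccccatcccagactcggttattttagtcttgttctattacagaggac
Cd36: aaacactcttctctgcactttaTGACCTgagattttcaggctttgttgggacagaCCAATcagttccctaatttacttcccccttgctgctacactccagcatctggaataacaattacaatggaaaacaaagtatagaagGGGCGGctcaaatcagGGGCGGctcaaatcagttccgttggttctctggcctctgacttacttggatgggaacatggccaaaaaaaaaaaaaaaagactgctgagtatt
The Slc27a1 window held 1 CCAAT box and the Vldlr window none of the motifs. The Cd36 window held 1 half-site, 1 CCAAT box and 2 GC boxes. Among 32851 such windows of all genes, 14.0% held the half-site, 33.8% the CCAAT box, 32.7% the GC box, 12.4% the TATA box and 0.0335% the direct repeat. GC content was 66.4% for Slc27a1, 43.2% for Cd36 and 41.6% for Vldlr. Slc27a1 and Vldlr have further starts, whose windows differ from those shown. The other 2 windows of Slc27a1 held 1 GC box (60.8% GC), and 1 CCAAT box with 3 GC boxes (58.4% GC), and the second window of Vldlr held 1 CCAAT box and 1 GC box (66.4% GC). The counts do not tell which start was used, so no contrast between the genes is drawn from these windows. Windows were found for 5 of the 10 genes, the other 2 being Lrp1 and Lmf1.

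Beyond these 10 genes, 63 further genes of fatty acid uptake and lipoprotein handling were listed, of which 38 were tested. None was called by edgeR, which called 1.22% of all tested genes, while 7 of the 38 had an unadjusted p under 0.05, against 12.4% of all tested genes, and DESeq2, which called 2.22% of all genes it tested, called 2, Scarb2 and Acsl1. Of the 38, 22 were below 0 and 16 above, and their median was -0.08 (log2). Scarb2, which encodes a lysosomal membrane protein related to CD36, was at 66.5, 78.9 and 59.5 CPM in the controls and 124, 95.9 and 111 CPM in the knockdown samples, a log2 fold change of 0.69 (SE 0.17, adjusted p = 0.128 by edgeR's quasi-likelihood test). Scarb1, the related HDL receptor, was at 189, 182 and 151 CPM in the controls and 380, 175 and 278 CPM in the knockdown samples, a log2 fold change of 0.68 (SE 0.25), and its groups overlapped. These 2 relatives of Cd36 lie on chromosome 5, as Cd36 does, and had values of similar size in the same direction. They were named for their small p or a DESeq2 call, so their likeness to Cd36 is a description only. Neither was called by edgeR.

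Acsl1, the main long-chain acyl-CoA synthetase of adipocytes, which traps fatty acids as CoA esters after entry, was at 3877, 3876 and 4006 CPM in the controls and 3249, 1619 and 1728 CPM in the knockdown samples. As for Lpl, which shares its chromosome, knockdown replicate 1 was the nearest to the controls. Its log2 fold change was -0.83 (SE 0.32, adjusted p = 0.324 by edgeR's quasi-likelihood test and 0.0553 by DESeq2). Apoe, an apolipoprotein that binds LRP1 and VLDLR, was at 28.1, 41.7 and 21.3 CPM in the controls and 6.76, 14.1 and 21.3 CPM in the knockdown samples. Its groups did not overlap, as in 18.5% of all tested genes, but they were apart by less than the digits given show. The log2 fold change was -1.09 (SE 0.39, adjusted p = 0.29 by the same edgeR test). Acsbg1, a further acyl-CoA synthetase, had 4, 4 and 0 counts in the controls and 31, 36 and 29 in the knockdown samples, with a fitted log2 fold change of 2.48 (SE 0.86, adjusted p = 0.268 by the same edgeR test). Of the 63 genes, 11 had no count in any sample. They include the transporters Slc27a5 and Slc27a6 and the binding proteins Fabp1, Fabp2, Fabp6 and Fabp7 of other tissues. Without RBMS1 knockdown replicate 1, edgeR called Acsl1 (-1.22, adjusted p = 0.0199) and Scarb2 (0.61, adjusted p = 0.091), where 696 of 11724 genes (5.94%, or 3.63% downward) were called in all.

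The genes whose log2 CPM followed each of the 9 most closely over the 6 samples were Tmem189 and Hebp1 for Cd36, Cyb5b and Glrx for Lpl, Kxd1 and Usmg5 for Fabp4, Sdha and D16Ertd472e for Fabp5, Rspo2 and Casc4 for Slc27a1, Scnm1 and Mre11a for Lmf1, Eif4a1 and Srsf2 for Angptl4, Syde2 and Rora for Vldlr, and Pgam1-ps2 for Lrp1. Pearson's r was between 0.986 and 0.999. It describes 6 points that share group, library and depth, and the closest of 11440 genes are picked, so that high values are found for any gene. Of these most correlated genes, Rspo2 (log2 fold change -3.18, adjusted p = 0.0552 by edgeR's quasi-likelihood test) was the 1 that was called.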

How the data were processed

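Total RNA was sequenced in 6 samples, 3 per group, from stranded libraries. The authors trimmed reads with Trim Galore 0.6.7, used STAR 2.7.10a for alignment (GRCm38) and Salmon 1.9.0 for quantification, and deposited estimated counts per gene. In a sample, 3.97% to 7.78% of these were not whole numbers. The annotation release is not given in the sources used here. After rounding, they were tested with edgeR 4.0.16 under R 4.3.3 (TMM factors, filterByExpr, quasi-likelihood test, condition as the sole term) with Benjamini-Hochberg adjustment. The table lists 45706 genes, of which 26283 lacked any count and 11440 were tested. Positions and exon lengths came from GENCODE annotation of GRCm38.

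The genes, lists and alternatives were chosen with earlier results of these data known. Genes were named by a rule in 5 parts: the 10 genes, Rbms1, the pathway genes called by an alternative on all 6 samples or among the 5 smallest p, the 2 genes most correlated with each, and the 2 tested neighbours on each side of Lpl, Slc27a1 and the Fabp pair. Some genes that the rule or a count covers are not reported here by name. Of 63 pathway genes, 2 were matched by an older symbol. Of 6 planned ratios, 1 could not be formed, since Gpihbp1 had almost no counts.

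Alternatives were DESeq2 1.42.0, limma-voom (limma 3.58.1), RLE size factors, library sizes alone, other filters, unrounded counts, a replicate block, removal of chromosome medians (chromosome 3 parted at 50 Mb) or of a GC and length trend, and each sample left out. Earlier edgeR estimates, the block combined with either removal, and the median of the 9 genes were added after seeing the data. Tested on simulated data for this comparison (11440 genes, 200 changed), edgeR recovered 66.5% of changed genes with 12.5% of its calls false, DESeq2 recovered 69% (19.3% false) and limma-voom recovered 63% (9.35% false). In this simulated data set the false shares of edgeR and DESeq2 were above the adjusted p of 0.1 at which genes were called. The simulation was not repeated, and its genes varied independently, without the shifts of whole chromosomes seen here. How far these shares hold for the calls of both, Slc27a1 included, was not tested.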

Additional observations from a re-analysis of the deposited data

How the results depend on the processing

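The number of genes called, 140 over all tested genes, was 430 with DESeq2, 268 with no filter, 71 with chromosome medians removed, 53 at an adjusted p under 0.05, and 12 to 696 with each sample left out (12 when scrambled control replicate 2 was dropped, 696 when RBMS1 knockdown replicate 1 was). With library sizes alone, 42 were lower and 84 higher, against 104 and 36 with TMM factors. Of the 9 genes of uptake and lipolysis tested, 1 was called, against 4 with DESeq2, 0 with library sizes alone or chromosome medians removed, and 0 to 3 with each sample left out. Of the pathway genes, 0 were called, against 2 with DESeq2, 1 with library sizes alone, 1 with no filter and 0 to 5 with each sample left out. Slc27a1 was below 0 in all 19 alternatives and called in 10. Rbms1 was called without RBMS1 knockdown replicate 3 (-0.92, adjusted p = 0.0708 by edgeR).

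The sign was opposite with library sizes alone for Fabp5 (0.23), Lmf1 (0.19), Angptl4 (0.14), Lrp1 (0.18) and the median of the 9 genes (0.14), where the median of all genes was itself 0.37. It was opposite for Fabp4 (0.17) and Fabp5 (0.46) with chromosome medians removed, which for these genes takes out the median of the first 50 Mb of chromosome 3 (-0.64), and also with the replicate block added (0.19 and 0.43). Both changes of sign follow from the amount each setting shifts the genes by.

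The deviations of same-numbered samples from their group means correlated at -0.144, 0.0785 and -0.0284, within the range of differently numbered samples (-0.173 to 0.206). These values show no pairing by replicate number, but with 3 samples per group they cannot exclude a pairing. With the replicate block, 39 genes were called in all, 26 with chromosome medians also removed and 10 with the GC and length trend also removed, and 0 of the 9 genes in each. Slc27a1 stood at -1.09 (edgeR adjusted p = 0.111), -0.70 (0.33) and -1.10 (0.105) in these 3. In scrambled control replicate 2, the shallowest sample, 3 counts stood for 1.49 CPM, which limits Gpihbp1 most.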
